A study of Mus musculus with 50 samples.

Results

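The genes described here are the SR proteins, the heterogeneous nuclear ribonucleoproteins (hnRNPs), the RNA-binding motif (RBM) proteins and the CDC-like kinases (CLKs), as expressed in the mouse gastrocnemius muscle from 8 to 28 months of age. They were taken by symbol (Srsf, Hnrnp, Rbm or Rbmx, and Clk1 to Clk4) on condition that they reached 1 TPM in 8 or more mice, TPM being the abundance of a gene's transcripts per length, scaled to the same total in every library. Of 74 genes with such a symbol, 68 met the condition, out of 23880 genes in the tables: 10 of 11 SR genes, all 4 Clk genes, all 19 Hnrnp genes and 35 of 40 Rbm genes. The condition did not cut through the values, since 65 of the 68 reached 1 TPM in all 50 mice and the other 3 in 49. Just inside it were Rbm12 (mean over the 50 mice 1.9 TPM), Rbm43 (2.0 TPM) and Rbm41 (2.94 TPM), and just outside were Rbm47 (0.282 TPM), Rbm3os (0.208 TPM) and Rbm11 (0.0877 TPM).

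RNA of the gastrocnemius, the large fast-twitch calf muscle, was sequenced from 50 male wild-type mice of the inbred strain C57BL/6JRj, in groups of 8 (at 8, 18, 22 and 24 months) or 9 (at 26 and 28 months), 1 library for every mouse. The comparison of ages follows the development of sarcopenia, the loss of muscle mass and strength with age. All mice were housed singly and ate the purified diet AIN-93M. By the study's methods, the 8 and 18 months-old mice and those aged 22 months or more were put on that diet under separate schemes. Age and diet history cannot be told apart between these sets, while the mice of 22 and 28 months shared one scheme. In that scheme the diet began at about the same age and lasted to the end. Time on the diet therefore grew with age and cannot be told apart from it.

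SR proteins carry RNA-recognition motifs and a tail rich in arginine and serine, and they mostly favour the use of an exon when bound within it. Many hnRNPs act against them at nearby sites, the CLK kinases phosphorylate the SR tail and so release SR proteins from nuclear speckles, and the RBM genes are a mixed group that includes spliceosome subunits, tissue-specific regulators and factors of RNA decay. Several of these proteins limit their own amount by steering their transcript into a form that is destroyed by nonsense-mediated decay. In striated muscle this machinery sets the isoforms of titin, of ion channels and of contractile proteins.

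Of the 68 genes, 58 had a start site in the RefSeq promoter table for GRCm38.p6. In each family, the promoter shown is that of the gene with the largest rise at 28 months whose RefSeq start lay within 100 bases of a GENCODE protein-coding start, and each run holds the 250 bases before the start, 5′ to 3′ on the strand of the gene. Capitals mark the cAMP response element half-site TGACG, the ETS site CCGGAAG and the CCAAT box, on either strand, and the full cAMP response element TGACGTCA holds 2 overlapping half-sites. The 4 runs lay at chr11:51262864-51263113 on the plus strand (Clk4), chr12:80945249-80945498 on the plus strand (Srsf5), chr1:178337816-178338065 on the minus strand (Hnrnpu) and chrX:57393037-57393286 on the minus strand (Rbmx).
Clk4: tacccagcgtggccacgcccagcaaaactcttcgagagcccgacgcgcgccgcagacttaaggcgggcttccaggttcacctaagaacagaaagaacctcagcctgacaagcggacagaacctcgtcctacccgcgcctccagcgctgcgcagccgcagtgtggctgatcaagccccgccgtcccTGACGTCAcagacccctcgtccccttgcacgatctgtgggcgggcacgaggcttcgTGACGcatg
Srsf5: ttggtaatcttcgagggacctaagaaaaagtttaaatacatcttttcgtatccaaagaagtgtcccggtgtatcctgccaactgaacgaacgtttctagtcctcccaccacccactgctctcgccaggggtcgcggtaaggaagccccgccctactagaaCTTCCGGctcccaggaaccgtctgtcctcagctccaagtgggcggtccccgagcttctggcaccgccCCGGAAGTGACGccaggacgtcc
Hnrnpu: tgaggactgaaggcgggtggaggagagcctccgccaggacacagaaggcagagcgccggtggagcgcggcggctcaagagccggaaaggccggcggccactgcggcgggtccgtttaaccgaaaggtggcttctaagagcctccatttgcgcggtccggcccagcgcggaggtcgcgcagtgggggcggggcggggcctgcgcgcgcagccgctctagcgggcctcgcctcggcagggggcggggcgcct
Rbmx: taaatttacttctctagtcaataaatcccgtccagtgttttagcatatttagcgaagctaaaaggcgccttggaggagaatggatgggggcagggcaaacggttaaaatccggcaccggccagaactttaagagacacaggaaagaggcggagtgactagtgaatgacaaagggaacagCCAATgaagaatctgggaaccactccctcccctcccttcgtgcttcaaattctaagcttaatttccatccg

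The 4 promoters had little in common in the 3 marked motifs, of which TGACG stood in both the Clk4 and the Srsf5 run. The GC box GGGCGG, which is not marked, occurred in the Clk4, Srsf5 and Hnrnpu runs. The Clk4 run held the full cAMP response element and 1 further half-site, the Srsf5 run 2 ETS sites and 1 half-site side by side with the second of them, the Rbmx run 1 CCAAT box and the Hnrnpu run none of the 3. Among the 58 genes, TGACG stood before the start of 30 (51.7%), against 30.1% of the 9763 tested genes with a promoter in the table, with 58.3% in the 24 genes that did not pass the test at 28 months and 50% in the 32 that rose. CCAAT was found in 51.7% of the 58 against 40.4% of all, CCGGAAG in 22.4% against 15.2%, the GC box GGGCGG in 58.6% against 63.2%, TATAAA in 13.8% against 8.41%, and the full element TGACGTCA in Clk4 alone (1.72% against 2.99%). The median GC content of these 250 bases was 60.8% in the 58 genes and 59.6% in all.

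Libraries held 13607229 to 21267375 counts, and those of the 28 months-old mice 15402149 to 17443783. Summed muscle fibre markers made up 155773 to 181933 TPM at 8 months and 123636 to 202979 TPM at 28 months. Mouse 2 of 28 months and mouse 8 of 8 months stood apart from their groups: the median difference of the 68 genes from the mean of the 8 months-old mice was 0.84 in the former and 0.28 in the latter, on the log2(TPM + 1) scale, and over all tested genes it was 0.21 and 0.18. Results below are from all 50 mice. Without these 2 mice, a setting added after the values were seen, 34 of the 68 genes were higher and 2 lower at 28 than at 8 months, against 39 and 2 with them. The share of all tested genes called without these mice is not given, so the 34 shows only how the 68 genes moved.

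At 28 months, 39 of the 68 splicing regulators were higher than at 8 months, 2 were lower and 27 did not pass the test (edgeR quasi-likelihood test, Benjamini-Hochberg FDR < 0.01 over all 12586 genes tested). In that comparison 39.6% of all tested genes were called, 21% as higher and 18.7% as lower, whereas 57.4% of the splicing regulators were called higher and 2.94% lower. Their median log2 fold change was 0.29, against 0.0072 over all tested genes. The rises were moderate, from 1.18-fold to 1.96-fold with a median of 1.38-fold, 12 of them over 1.5-fold and none at 2-fold. By family, 3 of 4 Clk genes, 6 of 10 SR genes, 12 of 19 Hnrnp genes and 18 of 35 Rbm genes rose. The 2 genes that fell were Rbm38 and Srsf9. Because whole muscle was sequenced, fewer cells of a type and less RNA per cell cannot be told apart. With only the mice of the 2 ages in the fit, 25 genes were higher and 1 was lower, and the share of all tested genes in that fit is not given.

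**Figure D1:**
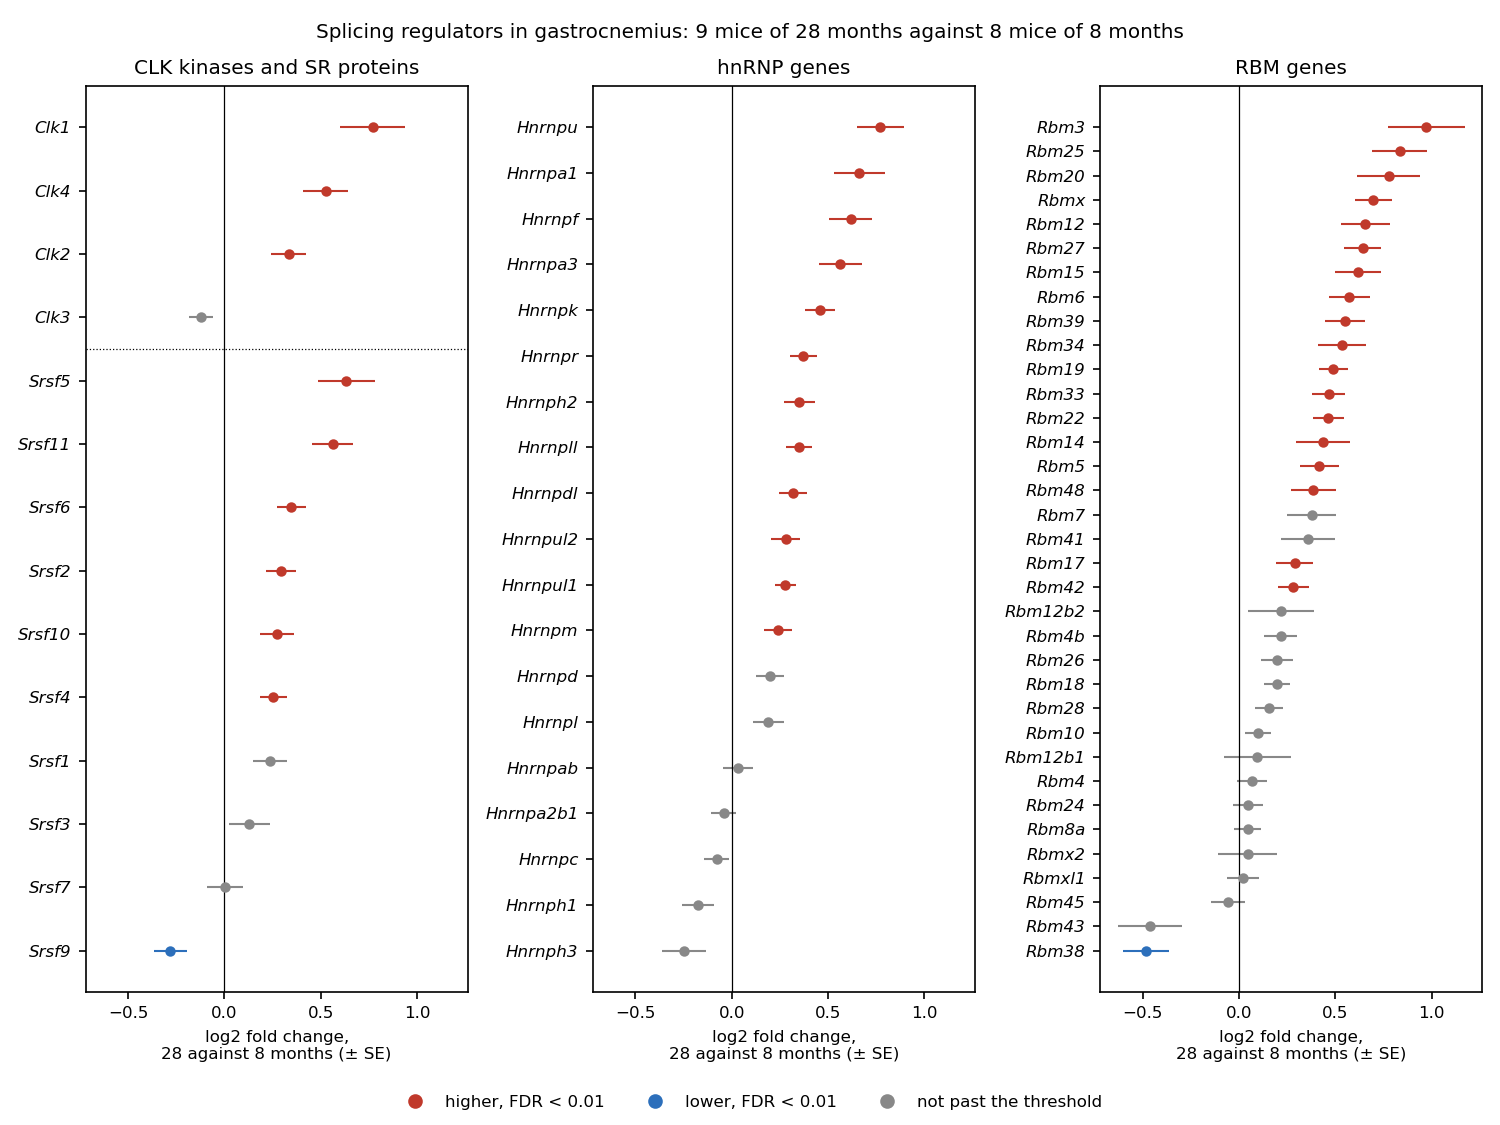
Log2 fold change between 28 and 8 months-old mice (x axis) for each of the 68 genes (y axis), in 3 panels by family; points are edgeR estimates, bars their standard errors, red and blue the genes past FDR < 0.01. Most points lie to the right of 0, up to 0.97 for Rbm3, and the 2 blue points are Rbm38 at -0.48 and Srsf9 at -0.28.

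Among the Clk genes, whose kinases phosphorylate SR proteins, Clk1, Clk4 and Clk2 rose and Clk3 did not pass the test. Clk1 ranged from 33.8 to 53.1 TPM (median 38.6) in 8 months-old mice and from 30.5 to 128 TPM (median 74.1) in 28 months-old mice. Mouse 1 held the highest old value, yet 1 old mouse lay below every young one, and 6 of 9 lay above. The rise was 1.70-fold (log2 0.77 ± 0.17 SE, FDR = 2.4e-04). Clk4, its close relative, was between 41.3 and 58.6 TPM (median 47.1) at 8 months and between 45.0 and 131 TPM (median 67.6) at 28 months, a 1.44-fold rise (log2 0.52 ± 0.12 SE, FDR = 2.6e-04). Fitted on the 2 ages alone, its FDR was 0.011. Mouse 2 held the highest Clk4 value, followed by mouse 5 with 98.5 TPM, and the ranges of both ages overlapped. Clk2 was less abundant, with 10.3 ± 1.14 TPM (SD, n = 8) at 8 and 13.6 ± 3.46 TPM (SD, n = 9) at 28 months (log2 0.33 ± 0.093 SE, FDR = 0.0025), and its call was lost without mouse 2 of 28 months (FDR = 0.011) and in a fit of the 2 ages alone (FDR = 0.019). Clk3 was near 43.0 ± 5.15 TPM (n = 8) at 8 and 41.6 ± 4.81 TPM (n = 9) at 28 months (log2 -0.12 ± 0.063 SE, FDR = 0.093).

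The SR genes were divided. Srsf5 and Srsf11 showed the largest increases, Srsf6, Srsf2, Srsf10 and Srsf4 smaller ones, Srsf9 fell, and Srsf1, Srsf3 and Srsf7 did not pass the test. Srsf5, the most abundant SR transcript per length in this muscle (mean 137 TPM over all mice), was between 59.8 and 160.1 TPM (median 121) at 8 months and between 120.0 and 371 TPM (median 179.8) at 28 months (1.55-fold, log2 0.63 ± 0.15 SE, FDR = 4.4e-04). Mouse 2 stood well above the next old mouse, which held 202 TPM, and 6 of 9 old mice exceeded all young ones. Srsf11 was between 26.1 and 52.2 TPM (median 29.6) in young and between 29.1 and 63.1 TPM (median 49.0) in old mice (log2 0.56 ± 0.11 SE, FDR = 3.7e-05), with overlap, although mouse 8 of 8 months stood apart and the next young mouse held 32.3 TPM.

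Srsf6 was between 22.8 and 38.7 TPM (median 25.2) in young mice and between 28.1 and 51.7 TPM (median 35.4) in old mice (log2 0.35 ± 0.075 SE, FDR = 1.9e-04). Srsf2, also known as SC35 and used as a marker of nuclear speckles, was between 53.2 and 79.5 TPM (median 61.5) in young and between 68.9 and 98.1 TPM (median 77.2) in old mice (log2 0.29 ± 0.076 SE, FDR = 0.0012). In both genes the 2 ages overlapped, as 2 of 9 and 4 of 9 old mice, respectively, lay above every young one. Srsf4 was 1.19-fold higher, with 15.2 ± 1.22 TPM (n = 8) against 19.1 ± 3.93 TPM (n = 9), and 7 of 9 old mice were above all young ones (log2 0.25 ± 0.071 SE, FDR = 0.0027). Without mouse 2 of 28 months its call was lost (FDR = 0.014), as it was in a fit of the 2 ages alone (FDR = 0.025). Srsf10, a regulator that represses splicing when it loses its phosphates, rose from 20.1 ± 4.40 TPM to 26.6 ± 6.28 TPM (log2 0.27 ± 0.088 SE, FDR = 0.0083), close to the threshold, and leaving out any of 9 single mice (1, 2, 4 or 7 of 8 months, 1, 2, 5, 7 or 8 of 28 months) ended that call, with FDR from 0.013 to 0.029. It was also lost with upper-quartile factors (FDR = 0.026), without the filter on low genes (FDR = 0.014) and in a fit of the 2 ages alone (FDR = 0.046). The single SR gene that fell, Srsf9, was between 10.3 and 12.6 TPM (median 11.8) at 8 and between 7.42 and 13.3 TPM (median 10.1) at 28 months (log2 -0.28 ± 0.085 SE, FDR = 0.0049), with 6 of 9 old mice below all young ones and 1 above. Leaving out any of 6 single mice (1, 3 or 7 of 8 months, 1, 3 or 4 of 28 months) ended its call, with FDR from 0.010 to 0.016, as did no filter on low genes (FDR = 0.013), a fit of the 2 ages alone (FDR = 0.024) and limma (FDR = 0.049).

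Srsf1, the founding member of the family, missed the threshold with 34.9 ± 7.34 TPM (n = 8) against 44.8 ± 7.36 TPM (n = 9) (log2 0.24 ± 0.088 SE, FDR = 0.022) and passed it without mouse 8 of 8 months (FDR = 0.0056) or mouse 3 of 28 months (FDR = 0.0073), and with limma (FDR = 0.0036). Srsf3 had 53.1 ± 9.46 TPM and 61.7 ± 12.1 TPM (log2 0.13 ± 0.10 SE, FDR = 0.3), and Srsf7 20.4 ± 4.12 TPM and 21.3 ± 2.41 TPM (log2 0.0029 ± 0.095 SE, FDR = 0.98).

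**Figure D2:**
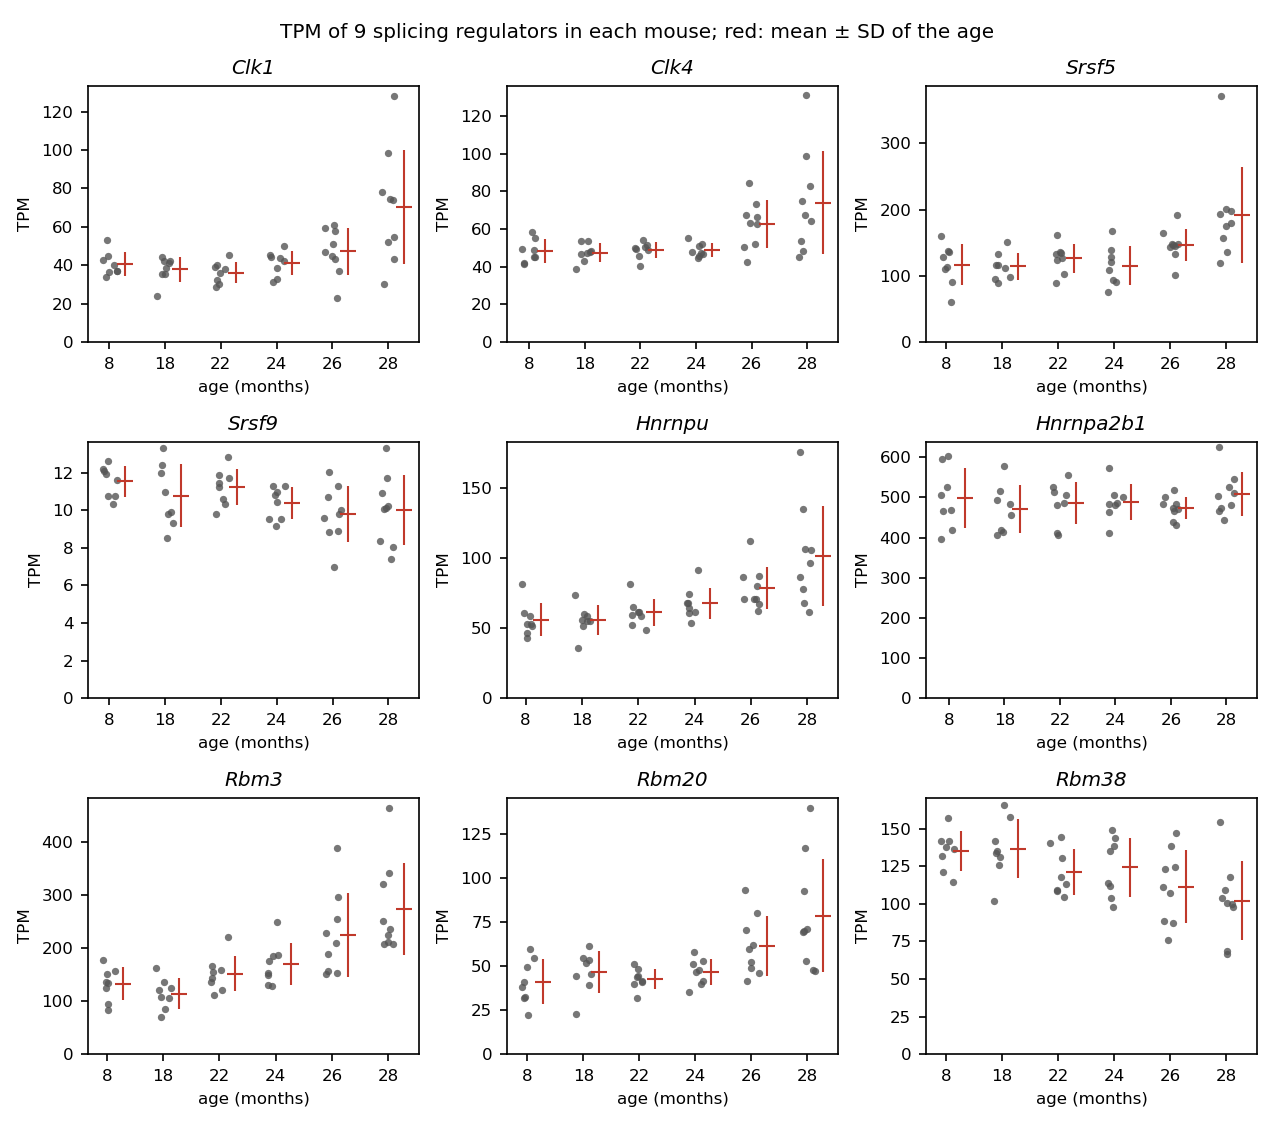
TPM (y axis, from 0) of 9 of the genes in each of the 50 mice by age in months (x axis); grey points are mice, red bars the mean ± SD of the age. Clk1, Clk4, Srsf5, Hnrnpu, Rbm3 and Rbm20 reach their highest values at 28 months, while the lowest Clk1 value (22.9 TPM) lies at 26 months. Hnrnpa2b1 stays near 488 TPM, and Srsf9 and Rbm38 reach lower values in the oldest mice.

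In the hnRNP family 12 of 19 genes rose and none fell (edgeR, and also DESeq2 and limma; 2 of the remaining 7 had a negative change with unadjusted p below 0.05). The highest of all 68 by level, Hnrnpa2b1, which also serves in RNA transport, was not among them: it was between 398 and 604 TPM (median 487) at 8 and between 444 and 627 TPM (median 504) at 28 months (log2 -0.042 ± 0.064 SE, FDR = 0.6). Next by level came Hnrnpk, a protein that binds stretches of cytosine, with 172 to 212 TPM (median 182) at 8 and 209 to 434 TPM (median 241) at 28 months. All but 2 of the old mice were above every young mouse, and the rise was 1.37-fold (log2 0.46 ± 0.078 SE, FDR = 6.2e-06). Hnrnpa3 was between 102 and 166 TPM (median 119) in young and between 136 and 272 TPM (median 199) in old mice (log2 0.56 ± 0.11 SE, FDR = 5.7e-05).

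Hnrnpu, a nuclear scaffold protein that binds both RNA and chromatin, showed the largest rise of the family. Its level was between 43.0 and 81.9 TPM (median 52.9) at 8 months and between 61.4 and 176 TPM (median 96.7) at 28 months, a 1.71-fold difference (log2 0.77 ± 0.12 SE, FDR = 2.4e-06). The ranges met only through mouse 8 of 8 months, as the next young mouse held 60.8 TPM and the lowest old mouse 61.4 TPM. Hnrnpa1, a classic antagonist of SR proteins, was between 73.6 and 109 TPM (median 85.5) and between 91.3 and 253 TPM (median 148) (1.58-fold, log2 0.66 ± 0.13 SE, FDR = 6.5e-05), with 7 of 9 old mice above the young range. Hnrnpf, which binds runs of guanine, was between 69.7 and 91.0 TPM (median 74.8) and between 84.1 and 242 TPM (median 121) (1.53-fold, log2 0.62 ± 0.11 SE, FDR = 1.4e-05). Mouse 2 again held the highest value and the next old mouse 142 TPM. The sixth of the largest increases was that of Hnrnpr, from 17.1 ± 3.06 TPM (n = 8) to 24.3 ± 3.59 TPM (n = 9) (log2 0.37 ± 0.070 SE, FDR = 2.9e-05). The other 6 genes of the family that rose, Hnrnph2, Hnrnpll, Hnrnpdl, Hnrnpul2, Hnrnpul1 and Hnrnpm, had log2 fold changes of 0.24 to 0.35. Hnrnph1 and Hnrnph3, close relatives of Hnrnph2, had -0.18 ± 0.083 SE (FDR = 0.071) and -0.25 ± 0.11 SE (FDR = 0.061).

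Of the 16 Rbm genes that act as splicing regulators or spliceosome proteins, 10 rose, none fell by edgeR, DESeq2 or limma (none had a negative change with unadjusted p below 0.05), and all 16 estimates were above 0. Rbm25, a speckle protein that modulates splice site choice, showed the largest rise of these, being between 46.7 and 88.5 TPM (median 60.4) at 8 months and between 60.6 and 208 TPM (median 112) at 28 months (1.78-fold, log2 0.83 ± 0.14 SE, FDR = 6.3e-06). In 7 of 9 old mice it was above every young mouse, and mouse 2 led the old mice, followed by mouse 1 with 134 TPM. Rbmx, the X-linked hnRNP G, was between 9.08 and 17.1 TPM (median 11.6) and between 15.9 and 23.8 TPM (median 20.1) (1.62-fold, log2 0.70 ± 0.10 SE, FDR = 2.7e-07), also with 7 of 9 old mice above the young range. Its retrogene Rbmxl1 had 12.4 ± 1.62 TPM (n = 8) and 13.3 ± 1.89 TPM (n = 9) (log2 0.020 ± 0.084 SE, FDR = 0.85). Rbm39, a partner of the U2AF splice site factors, rose by log2 0.55 ± 0.10 SE. The neighbours Rbm5 and Rbm6 on chromosome 9 both rose, by 0.42 ± 0.10 SE and 0.57 ± 0.11 SE on the log2 scale. The spliceosome subunits Rbm17, Rbm22, Rbm42 and Rbm48 rose by 0.29, 0.46, 0.28 and 0.39 and Rbm14 by 0.44, each on the log2 scale. Rbm4, Rbm4b, Rbm10, Rbm41, Rbmx2 and Rbmxl1 did not pass the test, with log2 fold changes from 0.020 to 0.36.

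The 3 Rbm genes known for muscle splicing differed in direction. Rbm20, the regulator of titin splicing, was between 22.4 and 59.3 TPM (median 39.5) at 8 months and between 47.2 and 139 TPM (median 69.7) at 28 months, a 1.71-fold rise (log2 0.78 ± 0.16 SE, FDR = 1.3e-04). It was above the young range in 6 of 9 old mice, with mouse 1 highest. Rbm24, a splicing factor of heart and skeletal muscle development, was between 98.1 and 127 TPM (median 105) and between 93.0 and 156 TPM (median 111), and the difference did not pass the test (log2 0.049 ± 0.078 SE, FDR = 0.62). Rbm38, an RNA-binding protein induced during myogenic differentiation, fell by 0.48 ± 0.12 on the log2 scale (FDR = 8.4e-04). Its level was between 114 and 157 TPM (median 137) in young and between 66.6 and 154 TPM (median 101) in old mice. In 7 of 9 old mice it was below every young mouse, while mouse 3 of 28 months held 154 TPM.

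The largest rise of all 68 genes was that of the cold-inducible Rbm3, whose protein is known to accumulate when cells cool. It was between 83.6 and 178 TPM (median 135) at 8 months and between 207 and 463 TPM (median 236) at 28 months, so that every old mouse lay above every young mouse (1.96-fold, log2 0.97 ± 0.20 SE, FDR = 8.2e-05). Such a full separation held for 3 of the 68 genes (4.41%), namely Rbm3, Rbm19 and Rbm42, against 1.95% of all tested genes. The value of Rbm42 is uncertain, since 91.1% of the distinct 31-base words of its protein-coding transcripts in GENCODE vM21 also occur in transcripts of another listed gene, Gm21982. Among the mice of 26 months, Rbm3 was between 150.1 and 388 TPM (median 209) and 6 of 9 were above the young range. Cirbp, the other classic cold-inducible RNA-binding gene, rose as well (log2 0.68 ± 0.15 SE, FDR = 2.3e-04). At 28 against 22 months Cirbp did not pass the test (log2 0.42, FDR = 0.021). Of the 9 genes tested in the temperature-responsive list to which Cirbp belongs, it was the single gene that rose against 8 months. Serpinh1 was the single gene that fell (log2 -1.43 ± 0.18 SE, FDR = 4.4e-08), and 7, among them the chaperones Hspa8 and Hsph1, did not pass the test. The shares of that list called higher and lower were thus 11.1% each, below the 21% and 18.7% of all tested genes.

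The remaining Rbm genes act in other steps of RNA life. Of 5 listed for the exon junction and nuclear RNA decay, Rbm27 and Rbm33 rose. Rbm27 was between 3.73 and 6.78 TPM (median 4.43) in young and between 6.21 and 12.6 TPM (median 7.13) in old mice (1.56-fold, log2 0.64 ± 0.10 SE, FDR = 1.1e-06), and Rbm33 rose by 0.47 ± 0.084 SE on the log2 scale. The exon junction subunit Rbm8a had a log2 fold change of 0.046 ± 0.070 SE. Rbm15, a subunit of the m6A methyltransferase complex, rose by 0.62 ± 0.12 SE on the log2 scale. Of 3 genes of ribosome biogenesis, Rbm19 and Rbm34 rose, by 0.49 and 0.54, and Rbm28 did not pass (0.16 ± 0.073 SE, FDR = 0.064). Of 6 other Rbm genes only Rbm12 rose, being between 1.17 and 2.09 TPM (median 1.65) in young and between 1.77 and 3.76 TPM (median 2.42) in old mice (log2 0.66 ± 0.13 SE, FDR = 3.5e-05), with 7 of 9 old mice above the young range. It was the least abundant of the 68. Rbm43 had -0.46 ± 0.17 SE (FDR = 0.019) and did not pass the test.

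Before 26 months no change was called. At 18, 22 and 24 months, 0 of the 68 genes passed FDR < 0.01 against 8 months in edgeR, DESeq2 or limma, where 0.0715%, 0.0397% and 0.612% of all tested genes were called by edgeR. At unadjusted p below 0.05, edgeR gave 0 genes at 18 months, 2 at 22 months and 4 at 24 months. The median log2 fold change of the 68 genes was -0.014 at 18 months, 0.0035 at 22 months and 0.068 at 24 months. At 26 months it was 0.20, and 13 genes were higher than at 8 months and 0 lower. With only the 2 ages in the fit 7 genes were higher, and with limma 6, where the shares of all tested genes are not given. Background calls at 26 months were 18.4% of all tested genes, 9.84% as higher and 8.55% as lower, against 19.1% of the 68 as higher. In the lower direction 4 of the 68 had unadjusted p below 0.05 at 26 months by edgeR, and DESeq2 and limma called 0.

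The 13 genes were Rbm3, Hnrnpa1, Rbmx, Rbm25, Hnrnpu, Hnrnpf, Rbm27, Hnrnpa3, Rbm22, Rbm19, Rbm33, Hnrnpul1 and Hnrnpll. Their values at 26 and 28 months were set against the same 8 young mice. Rbm3 had log2 0.76 at 26 and 0.97 at 28 months, Hnrnpa1 0.56 and 0.66, Rbmx 0.54 and 0.70, and Hnrnpu 0.49 and 0.77. Other genes called at 28 months had small estimates at 26 months, although the step from 26 to 28 months was not tested. Srsf6 had log2 0.0057 ± 0.075 SE at 26 months, Srsf2 0.089 ± 0.076 SE and Clk1 0.21 ± 0.17 SE, against 0.35, 0.29 and 0.77 at 28 months. Medians by age, from the youngest mice to the oldest, were 135, 115, 149.6, 164, 209 and 236 TPM for Rbm3. For Hnrnpu they were 52.9, 55.4, 60.5, 66.0, 71.1 and 96.7 TPM, so that each later age lay higher. For Clk1 they were 38.6, 39.8, 37.0, 43.1, 46.9 and 74.1 TPM, with the largest step between 26 and 28 months. For Rbm38 they were 137, 134, 116, 124, 111 and 101 TPM. An F-test over all 6 ages called 37 of the 68 (54.4%) and 35.4% of all tested genes.

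The mice of 28 and 22 months shared one diet scheme, although the older mice had been on it longer. Between these ages 36 of the 68 genes were higher and 0 lower (edgeR, FDR < 0.01). Of all tested genes 27.7% were called, 16.2% as higher and 11.5% as lower. Of the 68, 2 were lower at unadjusted p below 0.05, DESeq2 and limma called 0 as lower, and upper-quartile scaling called 1. The median log2 fold change was 0.30. This comparison uses the same 28 months-old mice as the one with 8 months. Clk1 was 1.91-fold higher at 28 than at 22 months (log2 0.93 ± 0.17 SE, FDR = 6.6e-05), with 28.6 to 45.4 TPM (median 37.0) at 22 months. Rbm3 had 111 to 219.9 TPM (median 149.6) at 22 months (log2 0.80 ± 0.20 SE, FDR = 0.0013), and Srsf5 89.9 to 162 TPM (median 129.7) (log2 0.56 ± 0.15 SE, FDR = 0.0025). Rbm38 and Srsf9 did not pass in this comparison (log2 -0.28 ± 0.12 SE, FDR = 0.051 and log2 -0.24 ± 0.085 SE, FDR = 0.022).

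**Figure D3:**
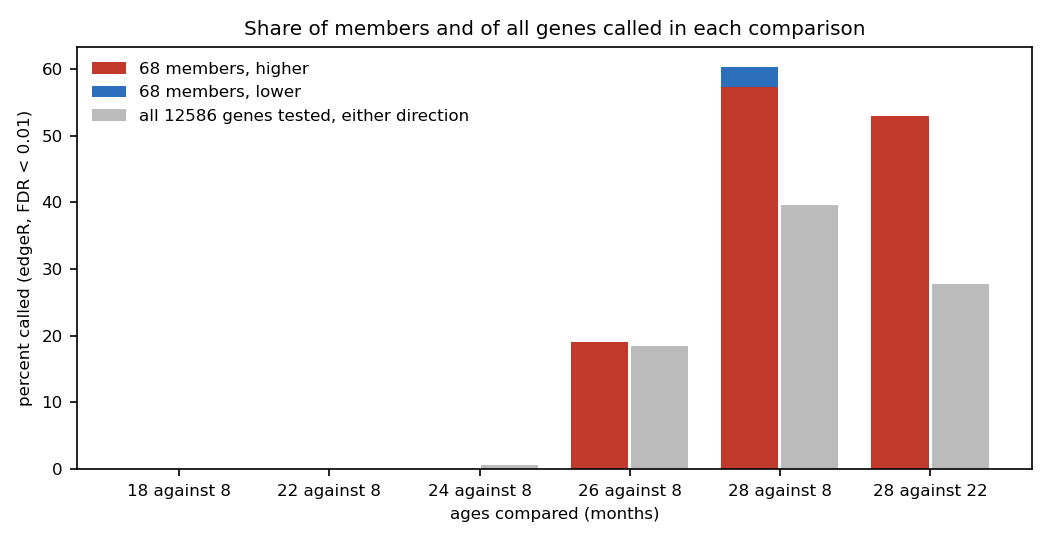
Percent of genes called by edgeR at FDR < 0.01 (y axis) in 6 comparisons of ages in months (x axis), for the 68 splicing regulators (red higher, blue lower) and for all 12586 tested genes in either direction (grey). The bars of the 68 are at 0 up to 24 months, at 19.1% at 26 months and at 57.4% higher plus 2.94% lower at 28 months.

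The old mice were unequal. Counting the genes that lay above every 8 months-old mouse, mouse 2 of 28 months had 56 of the 68, mouse 5 had 48, mouse 1 had 38, mouse 8 had 37, mouse 7 had 34, mouse 9 had 28, mouse 4 had 15, mouse 6 had 8 and mouse 3 had 4. In the same mice 12.2% to 44.8% of all tested genes lay above the young range. The share of the 68 was below that of all tested genes in mouse 3 (5.88% against 12.2%) and mouse 6 (11.8% against 13.1%). It was above in the other mice of 28 months. In number of genes, mice 3, 4 and 6 of 28 months were within the span of the younger ages. That span reached 10 genes (14.7%) at 18 months, 7 (10.3%) at 22 months and 23 (33.8%) at 24 months. Of all tested genes, up to 20.6%, 19.3% and 27.7% lay above the young range in a mouse of these ages. At 26 months the number ran from 3 to 32 with a median of 15, and the share of all tested genes from 6.32% to 28.2% with a median of 18.3%. In the other direction, mouse 2 of 18 months had 31 of the 68 genes below every 8 months-old mouse, a count not made for all tested genes. That mouse was low over all tested genes as well. Its median difference from the mean of the 8 months-old mice was -0.26 for the 68 and -0.24 for all, on the log2(TPM + 1) scale.

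**Figure D4:**
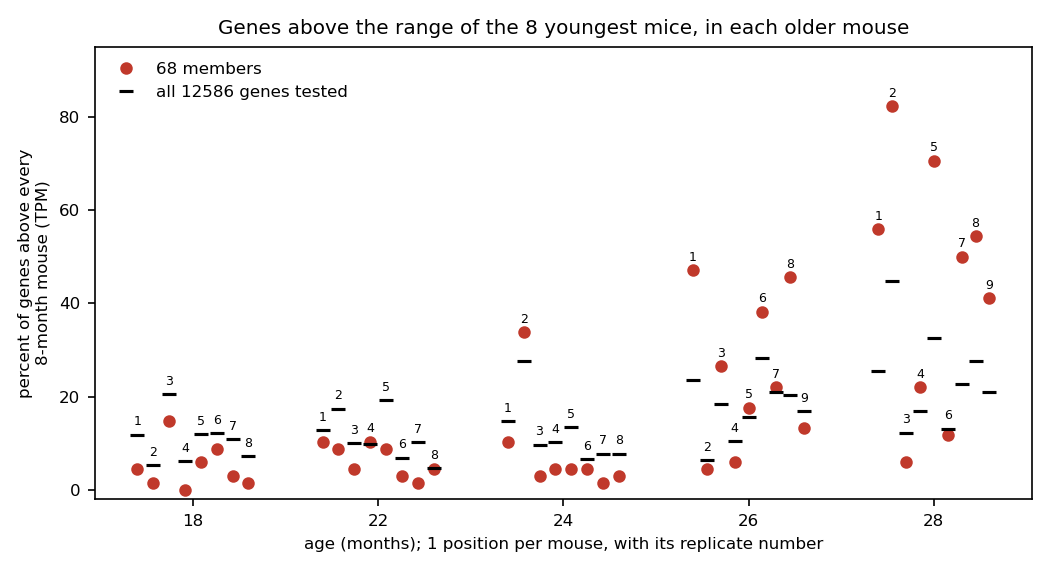
Percent of genes above the highest of the 8 mice of 8 months (y axis) in each older mouse, by age in months (x axis) with the replicate number above each point; red points are the 68 genes, black dashes all 12586 tested genes. At 28 months the red points spread from 5.88% in mouse 3 to 82.4% in mouse 2, while the dashes run from 12.2% to 44.8%.

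The same few old mice led most of the named genes. Mouse 2 held the highest value among the 28 months-old mice in 21 of the 29 genes named by rule, among them Clk4, Srsf5, Hnrnpu, Hnrnpk and Rbm25. Mouse 1 held that of Clk1, Rbm20 and Rbmx, and mouse 5 that of Rbm3 with 463 TPM. Some of the 29 were named for a large rise at 28 months, which a high old mouse enlarges. Mouse 2 also had 44.8% of all tested genes above the young range. The lead was not counted over all genes. The genes also spread more among old mice. The median coefficient of variation of TPM between mice of an age was 15.5% at 8 months and 22.0% at 28 months for the 68 genes and 17.6% and 21.2% for all tested genes. It was 11.3% at 22 months and 11.4% at 24 months for the 68. In 49 of the 68 genes the coefficient was larger at 28 than at 8 months, a count not made for all tested genes. The largest at 28 months was 42.3% for Clk1.

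**Figure D5:**
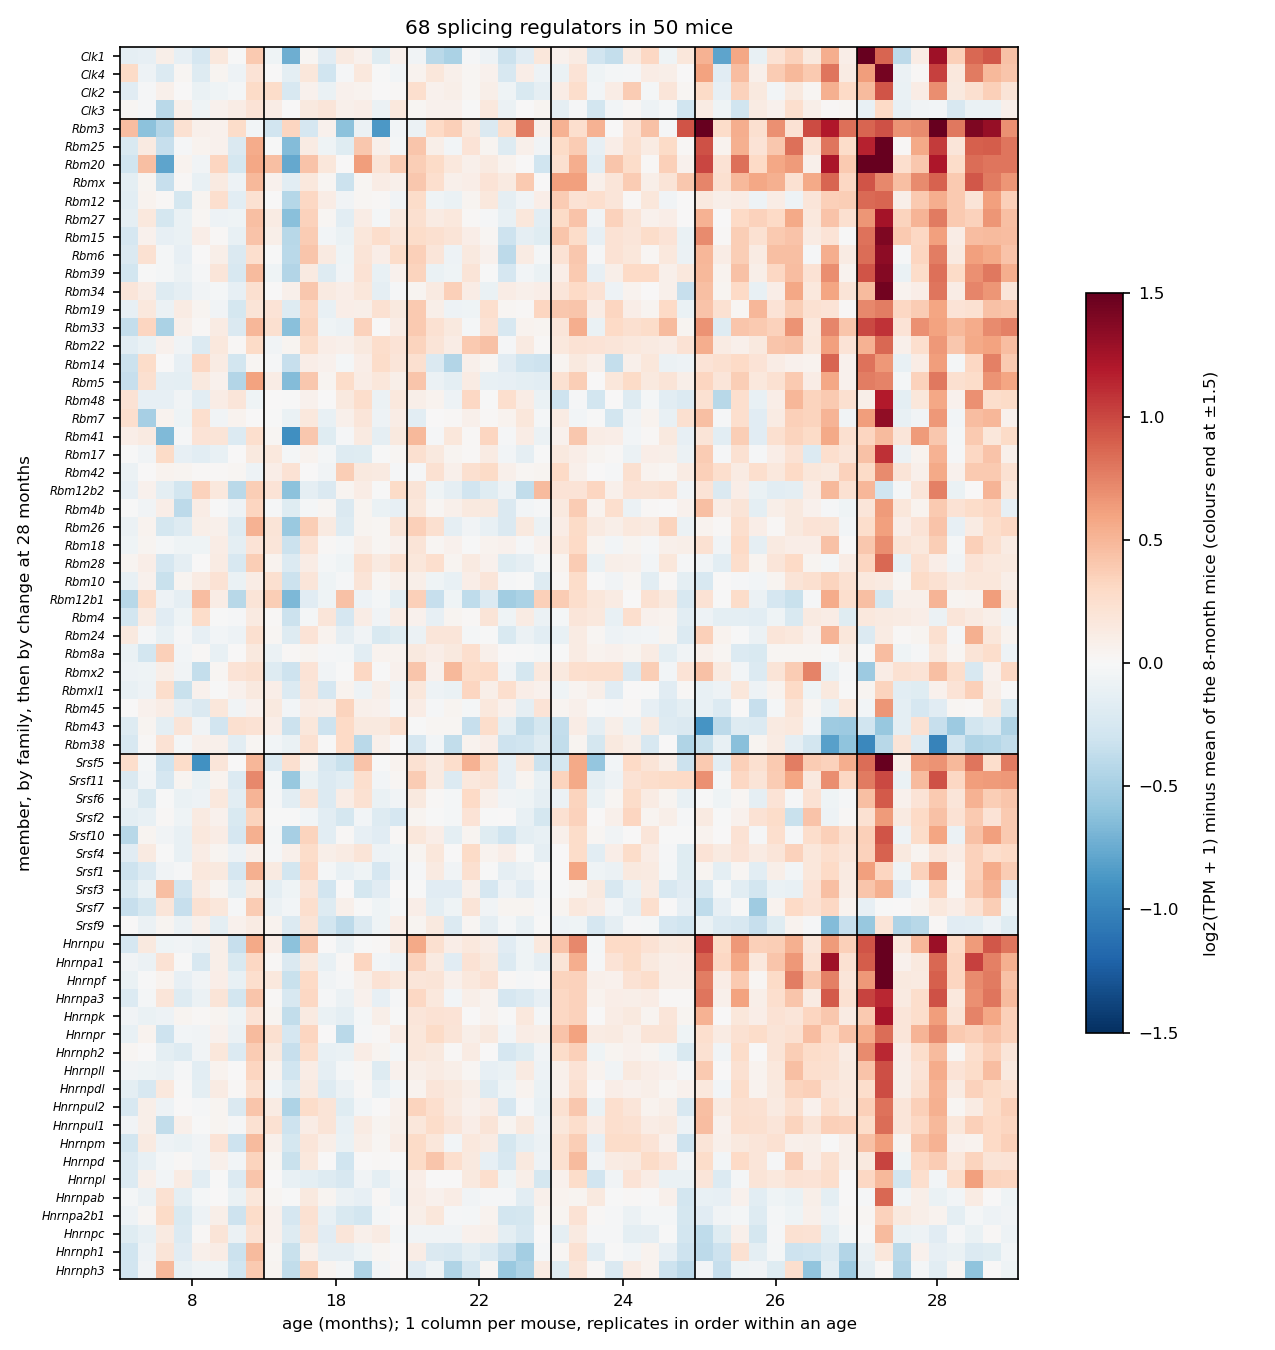
Difference of log2(TPM + 1) from the mean of the 8 months-old mice (colour, ending at ±1.5) for the 68 genes (rows, by family and then by change) in the 50 mice (columns, by age and replicate). Red columns stand out at 28 months for mice 1, 2 and 5 and at 26 months for mice 1 and 8, while Rbm38 and Rbm43 turn blue in several of the oldest mice.

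Other genes of the splicing machinery were counted in lists written for the comparison of 28 with 8 months, where 21% of all tested genes were called higher and 18.7% lower. Of 23 SR-related proteins and SR protein kinases, 16 rose and the other 7 did not pass the test, with a median log2 fold change of 0.55. Bclaf1 (log2 0.81 ± 0.13 SE, FDR = 2.2e-06) and Srrm1, a scaffold of the exon-bridging complex (log2 0.77 ± 0.11 SE, FDR = 2.4e-07), had the largest increases. Of 40 core spliceosome genes, 17 rose and 1 fell, with a median of 0.13. The largest increases were those of Sf3b1, the branch site subunit (log2 0.71 ± 0.13 SE, FDR = 1.6e-05), and Snrnp200, the helicase of the U5 particle (log2 0.68 ± 0.13 SE, FDR = 3.0e-05), and Snrnp35 of the minor spliceosome was the gene that fell (log2 -0.42 ± 0.087 SE, FDR = 1.0e-04). Of 14 genes of nonsense-mediated decay and the exon junction, 7 rose and the other 7 did not pass, led by the kinase Smg1 (log2 0.99 ± 0.21 SE, FDR = 1.2e-04) and Casc3 (log2 0.62 ± 0.10 SE, FDR = 3.9e-06). Of 12 tested muscle splicing factors outside the 4 families, such as Rbfox and Celf genes, 6 rose and the other 6 did not pass, led by Ptbp2 (log2 0.62 ± 0.090 SE, FDR = 6.2e-07) and Celf2 (log2 0.60 ± 0.12 SE, FDR = 8.4e-05). Of 15 circadian clock genes, 4 rose (26.7%) and 3 fell (20%), shares near those of all tested genes, with Cry2 (log2 1.76 ± 0.24 SE, FDR = 2.5e-07) and Per1 (log2 0.85 ± 0.21 SE, FDR = 6.4e-04) up and Bhlhe41 (log2 -1.21 ± 0.19 SE, FDR = 2.4e-06) and Hlf (log2 -0.72 ± 0.18 SE, FDR = 7.8e-04) down.

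Markers of other cell types and states moved with age as well. Of 9 tested denervation markers 8 rose, and their summed level was 138 to 239 TPM at 8 months and 275 to 780.3 TPM at 28 months. Of 13 macrophage gene identifiers (12 symbols), 9 rose, with sums of 196 to 336 TPM at 8 months and 307 to 847 TPM at 28 months. At 28 months the denervation sum was highest in mice 1 (780.3 TPM), 2 (745 TPM) and 5 (510.2 TPM). These mice had 38, 56 and 48 of the 68 splicing regulators above the young range. The sum was lowest in mouse 3 (275 TPM), with 4 of them above that range. Mice 6 and 7 had nearly equal sums (315 and 316 TPM) but 8 and 34 of the 68 above it. Much of the sum came from Gadd45a, with a mean of 34.7 TPM at 8 months and 184 TPM at 28 months. The macrophage sum was highest in mouse 2 (847 TPM) and ran from 307 to 478 TPM in the other 8 mice. Against 22 months, 7 of the 9 denervation markers and 1 of the 13 macrophage identifiers were higher at 28 months, and 7 of 11 fibroblast markers were lower. The single tested lymphocyte marker, Jchain, rose against 8 months and did not pass against 22 months (log2 0.23, FDR = 0.72), and the 11 lymphocyte markers summed to 1.21 to 3.44 TPM at 8 months and 1.86 to 17.5 TPM at 28 months. Of 11 fibroblast markers 8 fell and the other 3 did not pass, with sums of 1837 to 2816 TPM at 8 months and 1313 to 1891 TPM at 28 months. Of 8 adipocyte markers 1 rose and 5 fell (633 to 1074 TPM at 8 months and 567 to 1177 TPM at 28 months), of 10 endothelial markers 1 rose and 1 fell (210.4 to 326 TPM at 8 months and 244 to 352 TPM at 28 months), of 8 Schwann cell markers 1 fell (89.1 to 364 TPM at 8 months and 104 to 291 TPM at 28 months), of 6 tested satellite cell markers 2 rose and 1 fell (39.1 to 65.0 TPM at 8 months and 37.7 to 128 TPM at 28 months), and of 12 muscle fibre markers 2 rose and 1 fell. No listed marker was at 0 in all mice. The part of these shifts in the changes of the splicing regulators was not tested.

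The tables give 1 value per gene and therefore no splicing. The study's methods name protein-coding transcripts as the reference, yet of the 23845 listed genes found in GENCODE vM21, another release on the same build, 5578 have no protein-coding transcript there, among them Rbm3os. All of the 68 genes have one. Whether their forms that end in nonsense-mediated decay or retain an intron had a sequence of their own in the reference cannot be told from the tables. Such forms are common in these families: in GENCODE vM21, 36 of the 68 genes (52.9%) have a transcript annotated for nonsense-mediated decay, against 27.9% of the tested genes found there, and 48 (70.6%) one with a retained intron, against 57.8%. Clk1, for example, has 1 protein-coding transcript, 2 annotated for decay and 7 with a retained intron. Reads that fit several genes were divided evenly among transcripts. In 49 of the 68 genes under 1% of the 31-base words of the protein-coding transcripts occurred in another gene that the tables list, and in 8 genes over 10% did, namely Rbm42 (91.1%), Rbm12b1 (69.4%), Rbm12b2 (62.4%), Rbm4 (60.7%), Rbm12 (33.4%), Hnrnpm (22.3%), Rbm4b (19.3%) and Rbm14 (16.5%), whose values are uncertain to that extent. Against protein-coding transcripts of all genes in GENCODE vM21, listed or not, Rbmxl1 (82.9%), Srsf3 (31.3%), Hnrnpa3 (23.5%) and Rbm8a (13.5%) also shared over 10%. The effect of this on their values was not tested.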

How the data were processed

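Stranded mRNA libraries of gastrocnemius from 50 mice were analysed from 2 gene tables. The deposited counts were made by the authors with cutadapt 1.9.1 and kallisto 0.43.1 on transcripts of GRCm38 (protein-coding ones by the study's methods, although the tables also list non-coding genes), dividing a read that fits several transcripts evenly among them and summing transcripts to genes. The deposited TPM values were made by the authors from the same transcript counts divided by length and scaled to one total per library. Levels are given in TPM and differences from counts.

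Counts were fitted with edgeR 4.0.16 (R 4.3.3) under a quasi-likelihood model of all 6 ages with TMM scaling. Genes needed 1 CPM or more in 8 or more mice, p-values of the remaining 12586 were adjusted by Benjamini-Hochberg, and FDR 0.01 was the threshold. All 68 genes were tested. A log2 fold change is the fit's estimate with its standard error, SE, recovered from the test. Total counts of 13607229 to 21267375 per mouse and the spread between mice, 8 or 9 per age, set the precision. Groups came from the labels' ages and no mouse was left out. Each library was labelled as a separate mouse.

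Alternatives were DESeq2 1.42.0, limma 3.58.1 on log2(TPM + 1), upper-quartile factors, no filter on low genes, only the 2 ages compared, the replicate number as a block, a threshold of 0.05, a rule of 5 TPM, and leaving out each mouse of 8 and 28 months. The procedure was tested on simulated counts. Transcript types and shared 31-base words came from GENCODE vM21, another release on the same build. Promoters came from RefSeq, and motifs were picked after the values were known. Python 3.11.15 with pandas 2.3.3 was used for the rest.

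The genes and lists were chosen with earlier results of these data known. Genes were named by rule: all Clk and SR genes, the 6 largest increases and decreases past the threshold among Hnrnp and Rbm genes, the most abundant gene of each family, Rbm3, Rbm20, Rbm24 and Rbm38, those just inside or outside the expression rule, single exceptions to a count, and in other lists the 2 largest increases and decreases. Further members are named with their role, with their values seen.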

Additional observations from a re-analysis of the deposited data

Results flagged for a closer look

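A test for a single value far from the rest of its age group (gap to the next mouse over the range of the group, Dixon's 95% limit) was made on the 29 named genes at 8 and at 28 months, 58 groups in all. It marked 13 of them, where chance marks about 1 in 20, and in each the value was the highest of the group. Since the genes share the mice, these are not 13 separate events: 7 come from mouse 2 of 28 months and 6 from mouse 8 of 8 months. Some of the genes were named for a large rise at 28 months, which a single high mouse of that age enlarges. The rate of 1 in 20 is therefore no strict measure here.

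Mouse 2 of 28 months had 242 TPM of Hnrnpf (next mouse 142 TPM), 434 TPM of Hnrnpk (next 310 TPM) and 208 TPM of Rbm25 (next 134 TPM). It also had 12.6 TPM of Rbm27 (next 8.78 TPM), 28.9 TPM of Srsf4 (next 19.5 TPM), 371 TPM of Srsf5 (next 202 TPM) and 51.7 TPM of Srsf6 (next 39.1 TPM). Mouse 8 of 8 months had 212 TPM of Hnrnpk (next mouse 189 TPM), 23.9 TPM of Hnrnpr (next 17.8 TPM) and 81.9 TPM of Hnrnpu (next 60.8 TPM). It also had 88.5 TPM of Rbm25 (next 65.6 TPM), 52.2 TPM of Srsf11 (next 32.3 TPM) and 38.7 TPM of Srsf6 (next 29.9 TPM).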

How the results depend on the processing

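Between 28 and 8 months the 39 higher genes became 25 with only the 2 ages in the fit and 33 to 42 under upper-quartile factors, no filter, the replicate block, DESeq2 and limma. Leaving out 1 mouse gave 32 to 44, and leaving out both outlying mice, a setting added after seeing the data, gave 34. The shares of all tested genes called under these settings are not given, so the counts show only how the 68 genes moved. The 2 lower genes became 1 without the filter, with only the 2 ages and with limma, and 1 to 3 without single mice, where 1 was left without mouse 1, 3 or 7 of 8 months or mouse 1 or 3 of 28 months. Between 26 and 8 months the 13 higher genes became 7 with only the 2 ages, 6 with limma and 25 at FDR 0.05, where 2 were lower in place of 0. Between 28 and 22 months 1 gene was lower with upper-quartile factors and 1 at FDR 0.05, in place of 0. At 18, 22 and 24 months 0 genes were called under every setting run. All 41 genes called at 28 months kept their sign in each of the settings, and 26 to 41 of them passed the threshold again. The sign turned in 8 of the 68 genes, none of them called by edgeR at 28 months (FDR = 0.6 or more). In Hnrnpab, Rbm45, Rbm8a, Rbmx2 and Rbmxl1 the turned values ran from -0.061 to 0.0025. The other 3 are named genes: Hnrnpa2b1 had 0.038 with limma and -0.076 to 0.023 without single mice, Rbm24 had -0.0033 with upper-quartile factors and -0.024 to 0.084 without single mice, and Srsf7 had -0.046 with upper-quartile factors, -0.00026 with only the 2 ages and -0.041 to 0.053 without single mice. The cause of these shifts was not tested. Where only 2 ages were fitted, the spread was estimated from fewer mice and without the other ages. The median coefficient of variation of the 68 genes was 15.5% at 8 months, 11.3% at 22 months, 11.4% at 24 months and 22.0% at 28 months. The part of either in the lower counts was not tested.

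The replicate number as a block gave 40 higher and 2 lower genes at 28 months, 37 in the F-test, and changed no other count by over 1.5 times. Nothing states that equal numbers pair mice, and over 121 same-numbered pairs the mean correlation of deviations was 0.034 (-0.55 to 0.38) against -0.0042 for other numbers. The 6 genes under 5 CPM at 8 months had a median SE of 0.16 at 28 against 8 months and the other 62 one of 0.086, so smaller changes could pass in the latter. Gene tables show neither splicing nor cell source.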
